A study of Mus musculus with 6 samples.

Results

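The ATF4 and unfolded protein response genes described here are 35 genes that cells use to answer a shortage of amino acids or a load of unfolded protein in the endoplasmic reticulum (ER). They were taken by gene symbol from a list of names, and all 35 were found among the 41079 genes of the deposited expression table. They fall into 18 amino acid response genes (transcription factors, feedback regulators and the enzymes of asparagine, serine and one-carbon metabolism) and 17 ER folding genes (stress sensors, chaperones, and components that remove misfolded protein). The study asked how T cells adjust to low temperature and compared the transcriptomes of cold-acclimated and non-acclimated D10 cells. D10 is a mouse helper T cell line labelled CD4+ and described as cloned. The comparison is therefore of 1 named antigen-specific line kept in culture and not of T cells of an animal. Some T cell markers, given below, differed between replicates in both conditions, and whether all libraries hold the same cells was not tested. Non-acclimated T cells were cultured at 37°C for 24 h and cold-acclimated T cells at 26°C for 24 h, with 3 libraries of poly(A)+ RNA in each condition. Values are given as TPM, a transcript level scaled for gene length and library size. The reads on genes recovered from the TPM numbered 16899628, 21462543 and 31290854 in replicates 1, 2 and 3 at 37°C, and 19605883, 20579363 and 25169484 at 26°C.

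ATF4 is a basic leucine zipper transcription factor whose mRNA is translated more when eIF2 is phosphorylated by stress kinases. It activates genes for amino acid transport and synthesis, and, when stress lasts, a further set that includes Ddit3 (CHOP), Trib3 and Chac1. The unfolded protein response adds the ER membrane sensors ATF6 and IRE1, the second of which splices Xbp1 mRNA, and their targets are chaperones, folding enzymes and the machinery of ER-associated degradation (ERAD). Proliferating T cells depend on serine and one-carbon metabolism for nucleotide synthesis, and helper T cells that secrete cytokines carry a large folding load.

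The cell type label was checked against marker genes. Cd3e, a T cell receptor complex chain, lay at 874, 575 and 640 TPM at 37°C and at 761, 484 and 476 TPM at 26°C in replicates 1, 2 and 3, and Gata3, the helper T cell factor of the Th2 lineage, lay between 387 and 751 TPM. Cd4 went against the label in replicates 1 and 2, at 1.09 and 0.0351 TPM at 37°C and 1.30 and 0.352 TPM at 26°C, whereas it reached 310 and 328 TPM in the libraries numbered 3. Cd8a was listed at 0 in all 6 libraries, and Cd8b1 at 0 in all but cold-acclimated replicate 2, at 0.225 TPM. Of the 14 T cell markers, 12 had a mean of at least 1 TPM, Cd5 and Trbc1 were at or near 0, and the list summed to 5603, 4063 and 5092 TPM at 37°C and 5840, 4924 and 4869 TPM at 26°C. Replicate 2 was low in Trac, the constant chain of the alpha receptor, at 15.0 and 12.8 TPM against 129 to 207 TPM in the other libraries. It was also low in Cd3d, at 64.3 and 78.6 TPM against 240 to 332, and in Cd28, at 7.35 and 5.61 TPM against 27.9 to 54.5.

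Markers of other cells were near 0. The 12 B and plasma cell markers summed to between 1.24 and 4.81 TPM per library, with Cd79a at or below 0.587 TPM and Ighm the most abundant at up to 3.13 TPM. The 7 macrophage and monocyte markers summed to 2.46 and 3.39 TPM in replicates 1 and 2 at 37°C and to 3.37 and 2.69 TPM at 26°C, but to 15.9 and 21.2 TPM in the libraries numbered 3. Lyz2 made up most of that, at 11.6 and 14.8 TPM, while Cd14 was listed at 0 and Csf1r lay at or below 0.0253 TPM in all 6 libraries. The libraries numbered 2 and those numbered 3 therefore each stood apart in both conditions, and the counts of called genes are also given without either pair. The libraries numbered 1 were also low in Cd4, against the label, and no fit left out that pair. In bulk RNA, fewer cells of a type and less RNA per cell cannot be told apart.

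Against this background the stress genes did not move as a block. Cebpg, a partner subunit of ATF4, was nearly lost at 26°C. The mitochondrial one-carbon enzyme Mthfd2 was called lower, but this call ended under several alternatives given below. Hspa5, the main ER chaperone, was higher at 26°C in every library. It was not called in the main fit, which takes no account of the replicate numbers, but was called under some alternatives given below. A gene counted as called when its limma adjusted p lay below 0.05 and its change on the log2(TPM + 1) scale reached 1 in either direction, among the 12227 genes with a mean of at least 1 TPM. All 35 genes passed that filter. No gene of the 35 was called upregulated, beside 321 of all tested genes (2.63%), and 2 were called downregulated (5.71%), beside 1954 of all tested genes (16%). At an unadjusted p under 0.05, limma gave 2 genes of the 35 higher and 6 lower, beside 948 (7.75%) and 3664 (30%) of all tested genes. On the recovered reads limma voom called 0 up and 2 down, beside 408 (3.34%) and 1702 (13.9%). At that unadjusted p it gave 2 higher and 4 lower, beside 1215 (9.94%) and 3202 (26.2%). Without the libraries numbered 3, 1 of the 35 was called up (Hspa5) and 5 down (Cebpg, Mthfd2, Ddit4, Shmt2 and Canx), beside 653 (5.34%) and 3088 (25.3%) of all tested genes. Without the libraries numbered 2 no tested gene was called in either direction (0%), and so none of the 35.

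Scaling mattered for direction, because the tested genes as a whole had a median log2 fold change of −0.34 in TPM and 0.02 after median of ratios scaling. With the latter, 802 of all tested genes were called up (6.56%) and 1075 down (8.79%), and of the 35 genes Cebpb was called up and Cebpg down. The libraries pair by number, and with the replicate number as a block limma called 458 of all tested genes up (3.75%) and 2679 down (21.9%), and 0 and 4 of the 35. With both changes, 1086 of all tested genes were up (8.88%) and 1544 down (12.6%), and 3 of the 35 were up (Cebpb, Ppp1r15a and Hspa5) and 1 down (Cebpg). In TPM, 3 genes had all cold-acclimated libraries above all non-acclimated ones (8.57% of the 35, beside 9.69% of all tested genes). These were Cebpb, Hspa5 and Herpud1, and 5 were wholly lower, Cebpg, Mthfd2, Calr, Canx and Syvn1 (14.3%, beside 31.4%).

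The 18 amino acid response genes had a median log2 fold change of −0.09 and the 17 ER folding genes of −0.32, which is 0.25 and 0.02 above the median of all tested genes. Under median of ratios scaling both medians were positive, 0.30 and 0.07, and lay 0.28 and 0.05 above that of all tested genes. The pairs of same-numbered libraries differed from each other. Relative to all tested genes, the amino acid response median was 0.08, −0.14 and 0.63 in pairs 1, 2 and 3, and the ER folding median was −0.04, −0.09 and 0.24. Without the libraries numbered 3 the medians relative to all tested genes were −0.10 for the amino acid response and −0.14 for ER folding, and without those numbered 2 they were 0.47 and 0.10. The amino acid response value was also near 0 or below with no filter on mean TPM, at −0.019, and without cold-acclimated replicate 3, at −0.0076. It was 0.10 with quantile normalization. The ER folding value relative to all tested genes turned negative in both, to −0.25 with no filter and −0.33 with quantile normalization. No test of either list, or of the difference between them, was made.

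**Figure D1:**
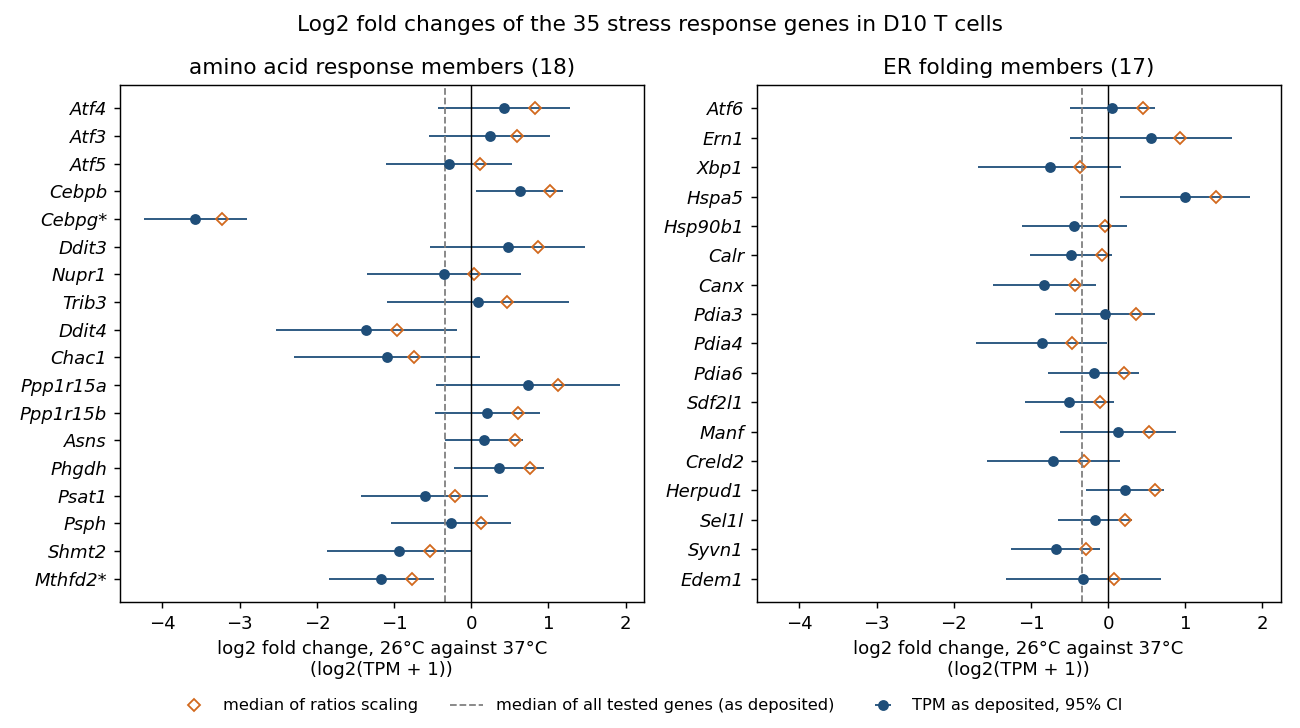
Log2 fold changes (26°C against 37°C, horizontal axis) of the 18 amino acid response and 17 ER folding genes, as filled points in TPM with limma 95% confidence intervals from 3 libraries per condition, and as open diamonds after median of ratios scaling. Asterisks mark the 2 genes called in TPM, the dashed line is the median of all tested genes (−0.34), and Cebpg lies at −3.57, far to the left of all the others.

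Among the transcription factors, Cebpg gave the largest difference of the 35. C/EBPγ lacks a strong activation domain of its own and pairs with ATF4 on amino acid response elements. Cebpg lay at 52.0, 55.04 and 34.2 TPM at 37°C in replicates 1, 2 and 3, and at 2.43, 2.72 and 3.85 TPM at 26°C. Every cold-acclimated library was far below every non-acclimated one, with the smallest gap in replicate 3. The mean fell from 47.1 ± 11.3 to 3.00 ± 0.752 TPM (SD, n = 3 each), 15.7-fold lower, on between 99 and 2127 reads per library. The log2 fold change was −3.57 ± 0.29 (SE, limma with Benjamini-Hochberg adjustment, adjusted p = 0.00673), lower in 3 of 3 pairs, and it was the 9th lowest of the 12227 tested genes. Cebpg was called with each single library left out in turn and under every other alternative but 1. Without the libraries numbered 2, where no tested gene was called, it was −3.40 (limma adjusted p = 0.164, over all alternatives 0.00246 to 0.164).

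Cebpb, the activating C/EBP that also partners ATF4, lay on the other side. It measured 28.5, 19.8 and 26.0 TPM at 37°C and 44.1, 33.9 and 37.9 TPM at 26°C. The conditions did not overlap, and replicate 2 was the lowest library in each. The mean went from 24.8 ± 4.50 to 38.6 ± 5.14 TPM (SD, n = 3 each), with a log2 fold change of 0.63 (95% CI 0.06 to 1.19; limma adjusted p = 0.102), higher in 3 of 3 pairs but not called. Cebpb was called up after median of ratios scaling, at 1.01 (limma adjusted p = 0.0348, over all alternatives 0.0167 to 0.432). The ratio of Cebpg to Cebpb in TPM, which no scaling between libraries alters, was 1.82, 2.78 and 1.32 at 37°C and 0.0552, 0.0802 and 0.102 at 26°C. Cebpg thus exceeded Cebpb per length in each non-acclimated library and was a small fraction of it in each cold-acclimated one. The ratio restates the separation of both genes in opposite directions, so its conditions could not overlap.

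Atf4 itself was abundant, at 337, 272 and 438 TPM at 37°C and 504, 278 and 692 TPM at 26°C. Its conditions overlapped, since replicate 2 was close to its partner and the 26°C value there lay below 2 of the 3 values at 37°C. Its log2 fold change was 0.42 (95% CI −0.44 to 1.28; limma adjusted p = 0.446), with log2 ratios of 0.58, 0.033 and 0.66 in pairs 1, 2 and 3, higher in 3 of 3. With median of ratios scaling and the block it was 0.82 (limma adjusted p = 0.0222, over all alternatives 0.0222 to 0.803), not called because the fold was under the limit of 1. These are mRNA levels and say nothing of the translation by which ATF4 is mainly regulated.

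Ddit3, which encodes the stress factor CHOP, measured 65.4, 29.1 and 25.0 TPM at 37°C and 54.3, 33.0 and 72.3 TPM at 26°C. Most of its mean difference came from replicate 3, where the log2 ratio was 1.50, against −0.26 and 0.18 in replicates 1 and 2. The log2 fold change was 0.47 (95% CI −0.54 to 1.48), and −0.043 without the libraries numbered 3. Atf3, an immediate stress factor, lay between 5.05 and 12.1 TPM. Atf5, a relative of ATF4 tied to mitochondrial stress, lay between 51.7 and 125 TPM. Nupr1, a small stress-induced chromatin protein, lay between 12.3 and 41.2 TPM. Their log2 fold changes were 0.24 (95% CI −0.54 to 1.02), −0.28 (−1.10 to 0.53) and −0.35 (−1.35 to 0.65). The signs of Atf5 and Nupr1 turned positive after median of ratios scaling, to 0.11 and 0.029, and that of Atf3 turned negative without the libraries numbered 3, to −0.041. Without those libraries Nupr1 was −0.97 (limma adjusted p = 0.0392, over all alternatives 0.0392 to 0.983), under the fold limit.

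Among the feedback and effector genes, Ddit4 separated replicate 3 from the others. Ddit4 (REDD1) restrains mTORC1. It stood at 136, 115 and 134 TPM at 37°C and at 34.4, 28.7 and 119 TPM at 26°C. Replicates 1 and 2 were much lower at 26°C, whereas the cold-acclimated replicate 3 stayed within the non-acclimated values, so the conditions overlapped. The log2 ratios were −1.95, −1.96 and −0.17 in pairs 1, 2 and 3, the last of them 0.11 after median of ratios scaling. Its log2 fold change was −1.36 (95% CI −2.53 to −0.19; limma adjusted p = 0.0909) and was not called. It was called with the replicate block (limma adjusted p = 0.0316) and without the libraries numbered 3, at −1.96 (limma adjusted p = 0.00400, over all alternatives 0.00272 to 0.403).

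Chac1, a glutathione-degrading enzyme induced late in the ATF4 program, lay at 16.3, 12.5 and 7.95 TPM at 37°C and at 12.2, 2.55 and 3.62 TPM at 26°C. It was lower in all 3 pairs, but the cold-acclimated replicate 1 lay inside the non-acclimated range. Its log2 fold change of −1.09 (95% CI −2.30 to 0.12; limma adjusted p = 0.168) was called only with the replicate block (limma adjusted p = 0.0429, over all alternatives 0.0429 to 0.617). Trib3, a pseudokinase that dampens ATF4 and CHOP, lay at 32.0, 14.8 and 17.9 TPM at 37°C and at 27.3, 9.86 and 37.3 TPM at 26°C, with a log2 fold change of 0.09 (95% CI −1.09 to 1.27). That value was −0.38 without the libraries numbered 3.

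Ppp1r15a (GADD34) and Ppp1r15b (CReP) encode the stress-induced and the constitutive subunit that direct a phosphatase to eIF2. Ppp1r15a lay at 54.2, 63.5 and 16.2 TPM at 37°C and 86.4, 65.8 and 47.1 TPM at 26°C. It was higher at 26°C in all 3 pairs, and replicate 3 was the lowest library in each condition. Its log2 fold change of 0.73 (95% CI −0.46 to 1.92) was not called, and it was 0.13 without non-acclimated replicate 3. With median of ratios scaling and the block it was called at 1.12 (limma adjusted p = 0.0250, over all alternatives 0.0250 to 0.789). Ppp1r15b lay between 90.0 and 173 TPM, with a log2 fold change of 0.21 (95% CI −0.47 to 0.89).

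Of the metabolic enzymes 1 was called. Mthfd2, the mitochondrial dehydrogenase and cyclohydrolase that carries the one-carbon unit onward, lay at 326, 294 and 214 TPM at 37°C and at 103, 102 and 170 TPM at 26°C. All cold-acclimated libraries were lower than all non-acclimated ones, and the gap was narrowest in replicate 3. The mean fell from 278 ± 57.7 to 125 ± 38.8 TPM (SD, n = 3 each), 2.22-fold lower, and the log2 fold change was −1.16 ± 0.29 (SE; limma with Benjamini-Hochberg adjustment, adjusted p = 0.0311), lower in 3 of 3 pairs. Under median of ratios scaling it was −0.77 and no longer called (limma adjusted p = 0.0820). The call also ended without non-acclimated replicate 1 or 2 (−1.04 and −1.11, limma adjusted p = 0.0972 and 0.109) and without cold-acclimated replicate 1 or 2 (−1.05 and −1.04, 0.116 and 0.11). The fold thus stayed beyond the limit of 1 in these 4. With no filter on mean TPM the call ended at an unchanged −1.16 (limma adjusted p = 0.0592). Without the libraries numbered 2, where no tested gene was called, Mthfd2 was −0.99. Over all alternatives the limma adjusted p ran from 0.00505 to 0.293.

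Phgdh, which opens serine synthesis, lay at 467, 564 and 636 TPM at 37°C and 747, 570 and 832 TPM at 26°C. It was higher at 26°C in each pair, by little in replicate 2, and its conditions overlapped. Its log2 fold change was 0.36 (95% CI −0.22 to 0.94). The ratio of Mthfd2 to Phgdh in TPM was 0.698, 0.521 and 0.336 at 37°C and 0.138, 0.180 and 0.204 at 26°C, with no overlap between conditions. The ratio of Shmt2, the mitochondrial serine hydroxymethyltransferase, to Phgdh was 0.591, 0.802 and 0.729 at 37°C and 0.216, 0.248 and 0.433 at 26°C, also without overlap. Both ratios were picked after the values had been seen. Of the ratios computed but not given here, those of Ppp1r15a to Ppp1r15b, Chac1 to Trib3 and Asns to Atf4 overlapped between conditions. Those of Psat1 to Phgdh, Hspa5 to Calr and Ddit4 to Ddit3 did not.

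Shmt2 itself measured 276, 453 and 463 TPM at 37°C and 162, 141 and 361 TPM at 26°C. It was lower at 26°C in all 3 pairs, but replicate 3 at 26°C exceeded replicate 1 at 37°C. The log2 fold change was −0.93 (95% CI −1.87 to 0.00134; limma adjusted p = 0.133), and without the libraries numbered 3 it was −1.22 and called (limma adjusted p = 0.0268, over all alternatives 0.0182 to 0.603). Psat1 and Psph, the next enzymes of serine synthesis, had log2 fold changes of −0.60 (95% CI −1.43 to 0.22) and −0.26 (−1.05 to 0.52), and Psph turned to 0.13 after median of ratios scaling. Psat1 was −0.99 without the libraries numbered 3 (limma adjusted p = 0.0375, over all alternatives 0.0312 to 0.756), just under the fold limit. Asns, asparagine synthetase and a classical ATF4 target, lay at 245, 227 and 182 TPM at 37°C and 252, 229 and 246 TPM at 26°C, with overlap. Its log2 fold change was 0.16 (95% CI −0.34 to 0.66).

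**Figure D2:**
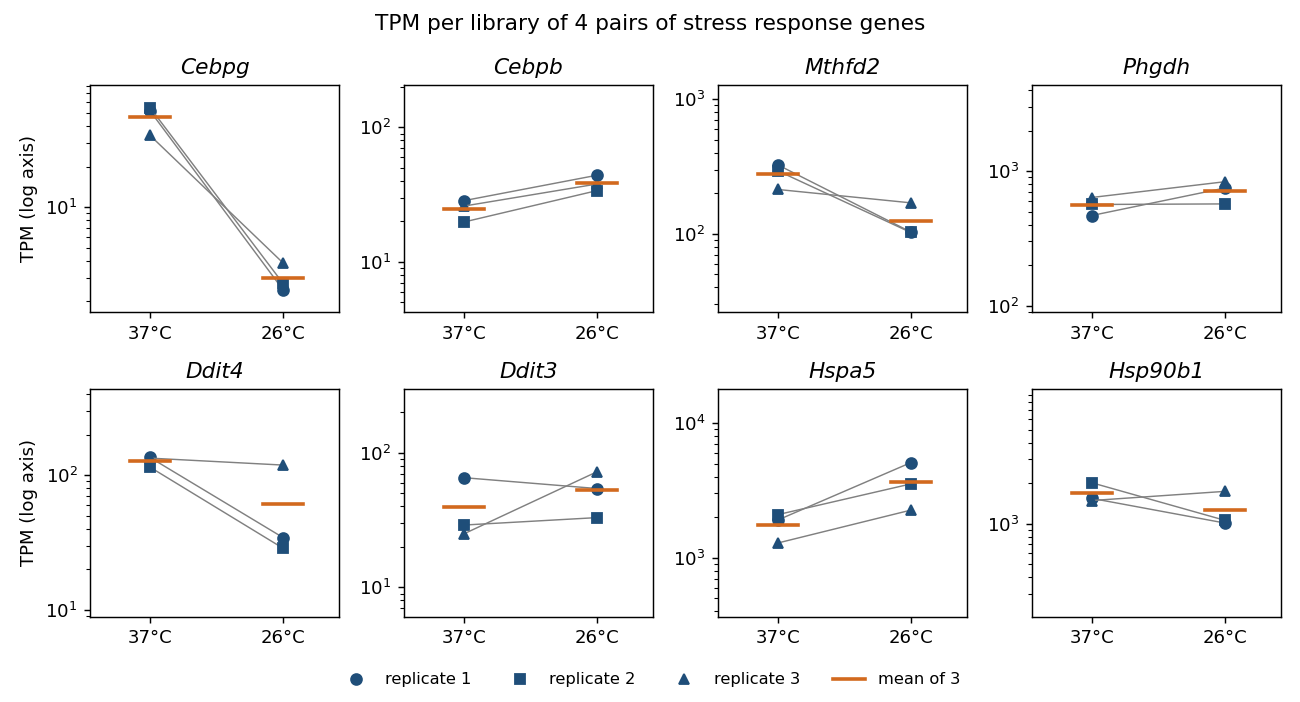
TPM per library (vertical log axes, each spanning the same fold range) at 37°C and 26°C for 8 genes, with symbols for replicates 1, 2 and 3, grey lines joining libraries of the same number and bars at the mean of 3. Cebpg and Mthfd2 are lower and Cebpb and Hspa5 higher at 26°C in all 3 pairs, and Ddit4 at 26°C lies at 34.4 and 28.7 TPM in replicates 1 and 2 but at 119 TPM in replicate 3.

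Among the ER folding genes, Hspa5 (BiP), the chaperone that also holds the stress sensors inactive, was the most abundant of the 17 in each 26°C library. It lay at 1904, 2089 and 1285 TPM at 37°C and at 5084, 3533 and 2257 TPM at 26°C. Each cold-acclimated library exceeded every non-acclimated one, and replicate 3 was the lowest in both conditions. The mean went from 1759 ± 421 to 3625 ± 1416 TPM (SD, n = 3 each), 2.06-fold. The log2 fold change of 0.995 (95% CI 0.15 to 1.84; limma adjusted p = 0.0872) was higher in 3 of 3 pairs and was not called. With the replicate block the limma adjusted p was 0.0132, with the fold just under the limit of 1. Under median of ratios scaling it was 1.40 (limma adjusted p = 0.0501), and with the block added it was called (limma adjusted p = 0.0119). It was also called without the libraries numbered 3, at 1.09 (limma adjusted p = 0.0458), and without cold-acclimated replicate 3 alone, at 1.30 (limma adjusted p = 0.0305, over all alternatives 0.0119 to 0.332).

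The large chaperones Hsp90b1, Calr and Canx had negative log2 fold changes in TPM, and no test of their difference from Hspa5 was made. Hsp90b1 (GRP94) lay at 1540, 2012 and 1482 TPM at 37°C and 1010, 1058 and 1734 TPM at 26°C. Replicates 1 and 2 were lower at 26°C and replicate 3 higher, and the conditions overlapped. This gave a log2 fold change of −0.44 (95% CI −1.12 to 0.24), and −0.036 under median of ratios scaling. The ratio of Hspa5 to Hsp90b1 in TPM was 1.24, 1.04 and 0.867 at 37°C and 5.04, 3.34 and 1.30 at 26°C, so the smallest ratio at 26°C was just above the largest at 37°C. Hspa5 made up 15.6%, 16.5% and 14.4% of the summed TPM of the 17 ER folding genes at 37°C, and 39.4%, 34.7% and 22.1% at 26°C. That sum itself was 12207, 12677 and 8909 TPM at 37°C and 12920, 10173 and 10212 TPM at 26°C, with overlap. Hspa5 enters both the ratio and the share, so they in part restate its own separation, and neither was planned.

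Calreticulin and calnexin, the lectin chaperones for glycoproteins, were wholly lower at 26°C in TPM. Calr lay at 1908, 1717 and 1529 TPM at 37°C and at 1256, 1090 and 1343 TPM at 26°C, with a log2 fold change of −0.48 (95% CI −1.01 to 0.05). Under median of ratios scaling it was −0.08, beside 0.02 for all tested genes. Canx lay at 701, 832 and 594 TPM at 37°C and at 363, 309 and 552 TPM at 26°C. Its log2 fold change was −0.83 (95% CI −1.49 to −0.16; limma adjusted p = 0.0758), called at −1.19 without the libraries numbered 3 (limma adjusted p = 0.0155, over all alternatives 0.0155 to 0.514). In pair 3 the log2 ratio turned positive under that scaling, to 0.09 for Calr and 0.17 for Canx.

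The protein disulfide isomerases Pdia3, Pdia4 and Pdia6 had log2 fold changes of −0.04 (95% CI −0.69 to 0.60), −0.86 (−1.71 to −0.01) and −0.19 (−0.78 to 0.40), and none was called. Pdia3 and Pdia6 turned to 0.36 and 0.21 after median of ratios scaling. Pdia4 was lower at 26°C in all 3 pairs, at 1112, 979 and 540 TPM at 37°C and 662, 347 and 425 TPM at 26°C. The smaller ER proteins Sdf2l1, Creld2 and Manf lay between 196 and 380, 81.8 and 250, and 722 and 1598 TPM. Their log2 fold changes were −0.50 (95% CI −1.08 to 0.08), −0.71 (−1.57 to 0.15) and 0.13 (−0.63 to 0.88). Creld2 was called at −1.05 without cold-acclimated replicate 3 (limma adjusted p = 0.0428, over all alternatives 0.0428 to 0.657), but it was −0.31 without cold-acclimated replicate 2 and also under median of ratios scaling.

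The sensors were expressed far below the chaperones. Atf6 lay between 64.6 and 98.3 TPM, with a log2 fold change of 0.05 (95% CI −0.50 to 0.61). Ern1, which encodes IRE1, lay at 15.0, 14.1 and 11.0 TPM at 37°C and at 20.9, 37.8 and 9.83 TPM at 26°C. It was higher in replicates 1 and 2 and lower in replicate 3, with a log2 fold change of 0.55 (95% CI −0.50 to 1.6). Xbp1, the mRNA that IRE1 splices, lay at 314, 303 and 206 TPM at 37°C and at 235, 197 and 86.9 TPM at 26°C. It was lower in all 3 pairs, with overlap through replicate 3, and its log2 fold change was −0.76 (95% CI −1.68 to 0.17). Leaving out cold-acclimated replicate 3 gave −0.32 and median of ratios scaling −0.36. Gene-level values do not separate its spliced and unspliced forms.

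Of the ERAD genes, Herpud1, a membrane scaffold of the degradation complex, lay at 67.6, 63.5 and 68.2 TPM at 37°C and at 69.8, 71.3 and 93.0 TPM at 26°C. The conditions did not overlap, though replicates 1 and 2 at 26°C were barely above the 37°C libraries. Its log2 fold change was 0.22 (95% CI −0.29 to 0.72). Syvn1, the HRD1 ubiquitin ligase, lay at 57.0, 57.3 and 51.6 TPM at 37°C and at 44.2, 27.0 and 33.3 TPM at 26°C, wholly lower at 26°C. The log2 fold change of Syvn1 was −0.68 (95% CI −1.25 to −0.10; limma adjusted p = 0.0879). Its log2 ratio in pair 1 was −0.36 in TPM and 0.035 after median of ratios scaling. Its adaptor Sel1l and the mannosidase-like Edem1 had log2 fold changes of −0.17 (95% CI −0.65 to 0.30) and −0.32 (−1.32 to 0.68). With median of ratios scaling these were 0.22 and 0.07.

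Some of these genes overlap others on the opposite strand. The libraries came from a directional kit, but whether the counting used strand is not given in the sources used here, so reads of such neighbours may not be told apart. For 6 of the 35 genes an overlapping gene had a mean of at least 1 TPM. Rabepk overlaps Hspa5 and had 0.258, 0.285 and 0.285 of its TPM at 37°C and 0.248, 0.267 and 0.275 at 26°C, a nearly constant ratio. Ddit3 overlaps Mars1, which lay at 110, 117 and 109 TPM at 37°C and 29.5, 28.9 and 65.3 TPM at 26°C, so this neighbour was lower at 26°C while the Ddit3 libraries overlapped. Gm45095, which overlaps Cebpg, lay at 2.76, 3.57 and 2.44 TPM at 37°C and 0.734, 0.974 and 0.992 TPM at 26°C, so it was lower at 26°C as Cebpg was. Mrpl49, which overlaps Syvn1, lay at 55.5, 50.1 and 75.8 TPM at 37°C and 19.02, 10.9 and 54.1 TPM at 26°C, lower in each pair as Syvn1 was. The remaining such neighbours were Nup62 of Atf5 and Catsper2 of Pdia3, and Mbd6 also overlaps Ddit3.

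Other genes of the same pathways were read from lists of names. Their counts stand beside 2.63% up and 16% down of all tested genes by limma, 3.34% and 13.9% by voom, and 6.56% and 8.79% after median of ratios scaling. Their median log2 fold changes stand beside −0.34 for all tested genes in TPM. At an unadjusted p under 0.05, 7.75% of all tested genes were higher and 30% lower by limma, and 9.94% and 26.2% by voom. Among 14 genes of the eIF2 kinases, eIF2 and its exchange factor eIF2B, 0 were called up and 1 down by limma, with 0 higher and 2 lower at an unadjusted p under 0.05, and the median log2 fold change was 0.22. The called gene was Eif2ak1, the heme-regulated kinase, at 70.2, 90.7 and 85.1 TPM at 37°C and 44.4, 28.4 and 43.9 TPM at 26°C (log2 fold change −1.08, limma adjusted p = 0.0277). By voom 0 were called in either direction, with 2 higher and 2 lower at that unadjusted p. With median of ratios scaling 1 was up and 0 down.

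Of 29 other ATF4 target genes, 23 were tested, and limma called 0 up and 5 down, with 0 higher and 9 lower at an unadjusted p under 0.05 (by voom 0 up and 5 down, with 1 higher and 6 lower). Their median log2 fold change was −0.44, beside −0.34 for all tested genes. The amino acid transporter Slc6a9 lay at 26.7, 20.2 and 21.4 TPM at 37°C and 2.85, 4.71 and 8.0 TPM at 26°C, and fell by 2.02 on the log2 scale (limma adjusted p = 0.0117). Pck2, the mitochondrial enzyme that makes phosphoenolpyruvate, lay at 77.2, 90.4 and 42.9 TPM at 37°C and 9.40, 7.50 and 20.9 TPM at 26°C. It fell by 2.45 (limma adjusted p = 0.0123). In both genes every cold-acclimated library lay below every non-acclimated one. The transporter Slc1a4 fell by 1.98 (limma adjusted p = 0.0181). Mars1, the methionyl-tRNA synthetase, fell by 1.53 (limma adjusted p = 0.0218) and Gpt2, a mitochondrial transaminase, by 1.45 (limma adjusted p = 0.0313), and both are named after their values were seen. After median of ratios scaling 1 gene of the list was up and 4 down.

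Of 11 other sensors and processing genes, 10 were tested, with 0 called up and 3 down by limma, 0 higher and 4 lower at an unadjusted p under 0.05 (the same numbers by voom), and a median log2 fold change of −0.55. The called genes were Mbtps1 and Mbtps2, the Golgi proteases that release ATF6, and Bfar, an ER membrane ubiquitin ligase. They fell by 1.29, 1.21 and 1.39 on the log2 scale (limma adjusted p = 0.0186, 0.0211 and 0.0168). Mbtps1 lay at 69.0, 89.3 and 62.8 TPM at 37°C and at 22.1, 33.8 and 33.3 TPM at 26°C, and Mbtps2 at 57.6, 44.6 and 35.2 TPM and at 20.9, 16.2 and 19.9 TPM. Neither gene overlapped between conditions. With median of ratios scaling 0 genes were up and 1 down, Bfar.

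Of 28 other ER chaperones and folding enzymes, 26 were tested, with 0 called up and 1 down by limma, and 0 higher and 9 lower at an unadjusted p under 0.05 (by voom 0 up and 1 down, with 0 higher and 5 lower). Their median log2 fold change was −0.40, beside −0.34 for all tested genes. After median of ratios scaling it was −0.03, beside 0.02. The called gene was Cnpy3, a cochaperone of Hsp90b1 for Toll-like receptors, at 118, 103 and 104 TPM at 37°C and 45.2, 34.6 and 71.4 TPM at 26°C (log2 fold change −1.15, limma adjusted p = 0.0333). Under median of ratios scaling 0 were called in either direction.

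Of 26 other ERAD and translocon genes, 25 were tested, with 1 called up and 1 down by limma, and 3 higher and 6 lower at an unadjusted p under 0.05 (by voom 1 up and 1 down, with 5 higher and 5 lower). Their median log2 fold change was 0.10. Selenos, a selenoprotein of the ER membrane that links ERAD to the p97 ATPase, lay at 103, 150 and 124 TPM at 37°C and 404, 333 and 230 TPM at 26°C. It rose by 1.33 on the log2 scale (limma adjusted p = 0.0195), with no overlap between conditions. Edem3, a mannosidase that marks glycoproteins for degradation, fell by 1.49 (limma adjusted p = 0.0186). After median of ratios scaling 3 genes were up and 1 down.

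The 12 calls in these lists were repeated with libraries left out. Without non-acclimated replicate 1 or non-acclimated replicate 2 all 12 ended (limma adjusted p from 0.0543 to 0.106 and from 0.0518 to 0.112). Without cold-acclimated replicate 1 or 2, 11 and 10 ended (0.0526 to 0.113 and 0.0539 to 0.107), and without non-acclimated replicate 3, 2 ended (0.0563 and 0.0591). Without cold-acclimated replicate 3 none of the 12 ended. With any single library left out, each log2 fold change stayed at 0.797 to 1.25 times its value from all 6 libraries, and only Eif2ak1 and Cnpy3 without cold-acclimated replicate 2 were smaller than 1. Without both libraries numbered 2 all 12 calls ended, at 0.738 to 1.07 times those values (limma adjusted p from 0.174 to 0.293). With both libraries numbered 3 left out, the genes called down numbered 3 of the eIF2 list, 8 of the ATF4 targets, 4 of the sensors, 4 of the chaperones and 3 of the ERAD list, and 1 was called up, in the last (5.34% up and 25.3% down of all tested genes). With the replicate block, 2 of the eIF2 list, 7 of the ATF4 targets, 4 of the sensors, 2 of the chaperones and 1 of the ERAD list were down, and 1 of the last was up (21.9% and 3.75% of all tested genes).

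The promoters of the genes were compared because ER folding genes are known to share the ER stress response element (ERSE), which binds NF-Y and ATF6, while ATF4 and C/EBP partners bind a composite element. RefSeq promoters (GRCm38.p6 table, 250 bases before to 50 after each start) were matched for 32 of the 35 genes, 17 amino acid response and 15 ER folding genes, and placed on GRCm39 by exact sequence match. The ERSE was searched on both strands as CCAAT and CCACG separated by 9 bases. It was found in 7 of 15 ER folding genes, in 0 of 17 amino acid response genes, and in 0.137% of the 27025 genes with a promoter. The matches lay before the start and are given on the strand of the gene with 12 flanking bases on each side, so that the spacing and both orientations can be seen. Capitals mark the match, which reads CGTGG, 9 bases, ATTGG where the element lies on the opposite strand.
Hspa5, + strand, chr2:34662025-34662067: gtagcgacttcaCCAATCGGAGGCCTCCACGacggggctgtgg
Hsp90b1, − strand, chr10:86541490-86541532: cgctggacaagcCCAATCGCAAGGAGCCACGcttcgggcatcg
Hsp90b1, − strand, chr10:86541385-86541427: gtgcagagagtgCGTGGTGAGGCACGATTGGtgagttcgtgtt
Calr, − strand, chr8:85573692-85573734: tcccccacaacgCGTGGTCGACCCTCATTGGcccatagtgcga
Canx, − strand, chr11:50216615-50216657: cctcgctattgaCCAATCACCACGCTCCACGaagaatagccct
Creld2, + strand, chr15:88703711-88703753: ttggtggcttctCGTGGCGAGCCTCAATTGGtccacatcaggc
Pdia6, + strand, chr12:17316480-17316522: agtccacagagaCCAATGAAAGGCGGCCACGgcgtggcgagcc
Syvn1, + strand, chr19:6096550-6096592: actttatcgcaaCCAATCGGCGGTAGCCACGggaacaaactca

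The 7 ER folding genes with an ERSE had log2 fold changes from −0.83 to 0.995 and a median of −0.48, and Hspa5 was the only one above 0 in TPM (2 of 7 after median of ratios scaling, the other being Pdia6). The 8 ER folding genes with a promoter and no match had log2 fold changes from −0.86 to 0.55 and a median of −0.25, with 2 of 8 above 0. After median of ratios scaling 5 of 8 were above 0 and the median was 0.14, beside −0.08 for the 7. Of 30 further genes with a match, 9 were tested, with 1 called up (Ptgdr2) and 1 down (Hnrnpa3) by limma, both named after their values were seen, beside 2.63% and 16% of all tested genes. At an unadjusted p under 0.05, 1 of the 9 was higher and 3 were lower (7.75% and 30% of all tested genes), and their median log2 fold change was −0.43. For all tested genes the median was −0.34 in TPM and 0.02 after median of ratios scaling. A match is a run of letters and not a measured site.

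Herpud1 held the shorter ERSE-II, searched on both strands as ATTGG and CCACG separated by 1 base, which 0.0444% of genes share. No member promoter held the UPRE letters TGACGTGG, found in 0.714% of genes. The composite C/EBP-ATF letters TGATGNAA were found in 5 amino acid response genes and in Herpud1, beside 4.51% of genes, and the CRE letters TGACGTCA in Ppp1r15a, beside 2.03%. The Cebpg and Mthfd2 promoters, those of the called genes, held none of these motifs. The Mthfd2 promoter searched, chr6:83294537-83294836, lies inside the gene as counted, whose outer start at 83302926 was not searched. The same holds for Edem1, searched at chr6:108805352-108805651 with an outer start at 108800984. The ERSE-II window of Herpud1 and the composite element of Asns, Atf3, Chac1 and Nupr1 are shown in the same way, the last 3 with the match on the opposite strand (TTNCATCA). The fifth gene, Trib3, has its match after the start.
Herpud1, + strand, chr8:95112993-95113027: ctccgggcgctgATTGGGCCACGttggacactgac
Asns, − strand, chr6:7693213-7693244: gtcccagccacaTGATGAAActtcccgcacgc
Atf3, − strand, chr1:190915621-190915652: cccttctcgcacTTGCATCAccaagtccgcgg
Chac1, + strand, chr2:119181518-119181549: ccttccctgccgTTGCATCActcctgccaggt
Nupr1, − strand, chr7:126224733-126224764: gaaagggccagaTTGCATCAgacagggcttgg
Their log2 fold changes were 0.22, 0.16, 0.24, −1.09 and −0.35 in this order, and none was called.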

How the data were processed

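Poly(A)+ RNA of 6 D10 libraries was sequenced by a provider with a directional kit. Reads had been trimmed with Trimmomatic 0.38, aligned to GRCm39 with HISAT2 2.1.0 and counted with featureCounts 1.6.3, and the deposited TPM were used here. The TPM of all genes were whole multiples of a read over the gene length (tolerance 1e-06), which gave the reads per library. Differences were tested by limma 3.58.1 (R 4.3.3; two-sided, with a mean-variance trend) on log2(TPM + 1) for genes with a mean of at least 1 TPM, with Benjamini-Hochberg adjustment over 12227 genes. A fold change on this scale understates that of low genes. Same-numbered libraries deviated together from their condition means (r = 0.48, 0.50 and 0.51; different numbers −0.41 to 0.02), so the numbers pair them, from the labels' replicate numbers and this check. The methods name independently prepared replicates and the labels old and new extraction batches, which are not assigned to libraries, so temperature could not be compared within a batch. The p-values measure only the spread between these libraries. Alternatives were pseudocount 0.1, no filter, median of ratios, quantile normalization, the block, voom, and leaving out libraries. The genes planned to be named were all 35, some markers, and of each further list the called genes with the smallest p, at most 3 per direction. Other genes of the lists were named after their values were seen. The members and lists were chosen with earlier results of these data known. Of the planned results, 1 is not reported here.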

Additional observations from a re-analysis of the deposited data

How the results depend on the processing

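A pseudocount of 0.1 changed no call of the 35 genes. Of all tested genes, the counts called up were 184 with no filter, 802 with median of ratios scaling, 731 with quantile normalization, and 59 to 459 with a library left out. With no filter the genes tested were the 21195 with a value in any library. The counts called down were, in the same order, 1121, 1075, 765, and 345 to 2725. Leaving out both libraries numbered 3 gave 653 up and 3088 down, leaving out both numbered 2 gave 0 up and 0 down, and median of ratios scaling with the replicate block 1086 up. These last alternatives were chosen after seeing the data. Among the 35 genes, 1 was up with median of ratios scaling, with quantile normalization (Cebpb each) and without the libraries numbered 3 (Hspa5), 3 with median of ratios scaling and the block, and 0 to 1 with a library left out. Down were 1 with no filter, with median of ratios scaling and with that scaling and the block (Cebpg each), 5 without the libraries numbered 3, 0 without those numbered 2, and 1 to 6 with a library left out, the 6 without cold-acclimated replicate 3. With the replicate block, which uses the pairing by number, 4 were down, adding Ddit4 and Chac1, and the block changed no other call of the 35. Shmt2, Pdia4 and Xbp1 had limma adjusted p = 0.0387, 0.0375 and 0.0386 with the block, but their folds were under the limit of 1. The ER folding median relative to the genes of each fit was −0.25 with no filter, where only this reference changed. It was −0.33 with quantile normalization, and −0.099 to 0.17 with a library left out. That of the amino acid response was −0.0076 to 0.46 with a library left out.

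Signs turned for uncalled genes, and the cause was not tested. With median of ratios scaling, block or not, the log2 fold changes were Atf5 0.11, Nupr1 0.029, Psph 0.13, Pdia3 0.36, Pdia6 0.21, Sel1l 0.22 and Edem1 0.07. With quantile normalization Nupr1 was 0.094 and Sel1l 0.081, and with voom Pdia3 was 0.084. Without the libraries numbered 3, Atf3 was −0.041, Ddit3 −0.043, Trib3 −0.38, Atf6 −0.16 and Manf −0.068, and without those numbered 2 Psph was 0.12 and Pdia3 0.0017. With a library left out, the ranges were −0.072 to 0.49 for Atf3, −0.82 to 0.015 for Nupr1, −0.29 to 0.62 for Trib3, −0.039 to 0.39 for Ppp1r15b, −0.13 to 0.17 for Atf6, −0.25 to 0.15 for Pdia3 and −0.17 to 0.41 for Manf. Without a change of sign, but by more than 1.5 times, the values moved to 0.11 to 1.03 for Ern1, −0.80 to −0.046 for Edem1, 0.13 to 0.79 for Atf4, −0.97 to −0.27 for Psat1, 0.13 to 1.09 for Ppp1r15a, −0.66 to −0.024 for Atf5, −0.57 to −0.058 for Psph, −1.04 to −0.32 for Xbp1, −0.37 to −0.065 for Pdia6, 0.039 to 0.25 for Asns, 0.21 to 0.89 for Ddit3, −1.66 to −0.71 for Chac1, −0.68 to −0.29 for Hsp90b1, −1.05 to −0.31 for Creld2 and 0.086 to 0.29 for Herpud1. Median of ratios scaling moved as much Atf4 to 0.82, Atf3 to 0.60, Ddit3 to 0.86, Trib3 to 0.46, Ppp1r15b to 0.61, Asns to 0.56, Phgdh to 0.76, Psat1 to −0.21, Shmt2 to −0.54, Atf6 to 0.45, Ern1 to 0.93, Xbp1 to −0.36, Hsp90b1 to −0.036, Calr to −0.08, Canx to −0.43, Pdia4 to −0.46, Sdf2l1 to −0.10, Creld2 to −0.31, Manf to 0.53, Herpud1 to 0.61 and Syvn1 to −0.29. Quantile normalization moved as much Atf3 to 0.86, Atf5 to −0.095, Cebpb to 1.01, Ddit3 to 0.78, Trib3 to 0.54, Chac1 to −0.49, Ppp1r15b to 0.33, Psph to −0.0047, Atf6 to 0.25, Ern1 to 1.08, Pdia3 to −0.17, Pdia6 to −0.30, Manf to 0.036, Herpud1 to 0.43, Syvn1 to −0.38 and Edem1 to −0.016. By as much, with the sign kept, 7 genes were larger and 6 smaller with voom, 10 and 4 without the libraries numbered 3, and 4 and 12 without those numbered 2. Recovered reads per gene and library were at least 36 for Chac1 and 87 for Nupr1, the lowest of the 35, so counting error weighs most there.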
